A study of Rattus norvegicus with 28 samples.

Results

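Pdx1, Mafa, Nkx6-1, Nkx2-2, Neurod1, Isl1, Pax6, Foxa2 and Rfx6 encode the transcription factors that establish and maintain the identity of pancreatic beta cells. These 9 genes were taken by symbol from a table of TPM values, levels that are scaled to transcript length and to the size of the library, keeping for each symbol the transcript with the highest mean. Mafa had no row in that table and was not analysed here. The other 8 genes were among the 17455 symbols of the table and among the 10275 symbols with a mean of at least 1 TPM that were tested.

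RNA-seq was performed on 28 libraries of INS-1 cells, a rat insulinoma line, in 14 groups of 2. The groups were unedited cells (WT) and cells of a Med14S983A knock-in, in which a serine of the Mediator subunit Med14 that is a substrate of protein kinase A was exchanged for alanine. Each genotype was left as control (CON) or exposed for 1, 8 or 16 h to 10 nM Ex-4 (exendin-4, a peptide that stimulates GLP-1 receptors) or to 10 μM FSK (forskolin, which activates adenylyl cyclase directly). All cells were placed in serum-free medium before treatment. The knock-in cells were expanded from sorted single cells. The study's methods describe biological replicates and more than one independently made Med14S983A line, but the labels tie no library to a line or a culture. Cell line and genotype therefore cannot be told apart here, and the p-values measure only the spread between these libraries, which may be technical.

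The beta cell factors work as a network. Foxa2 is a forkhead factor that opens chromatin in endoderm, Pdx1 and Nkx6-1 are homeodomain factors that drive insulin transcription and keep the beta cell fate, and Nkx2-2, Isl1 and Pax6 are homeodomain factors shared by several islet cell types. Neurod1 is a basic helix-loop-helix factor that binds E-boxes, including those of the insulin promoters, and Rfx6 is a winged-helix factor required for islet development and for calcium channel expression in mature beta cells. Stimulation of the GLP-1 receptor raises cAMP, which activates protein kinase A and the factor CREB, and Mediator connects such factors with RNA polymerase II.

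Libraries held between 42551133 and 92635979 fragments, the second largest holding 57231981, and spike-in RNA took 0.671% to 1.03% of them. Each of the 8 factors was read from at least 975 fragments in every library. The coefficient of variation (CV) of the 2 libraries of a group was 12.4% at most (Isl1 in WT cells at 8 h of FSK). The edited gene Med14 lay between 17.2 and 30.03 TPM in all libraries. This level does not check the edit, which exchanges 1 residue. Ins1 was at 33720 TPM or more in every library, and the alpha, delta, gamma, acinar, ductal, immune, endothelial and stromal markers, 26 in all, summed to 4.05 to 33.4 TPM once glucagon was set aside. Glucagon (Gcg), the alpha cell hormone, was at 166 and 169 TPM in WT CON and at 6.09 and 6.55 TPM in Med14S983A CON, while the alpha cell regulator Irx1 averaged 0.0182 TPM and Irx2 was listed at 0.

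Promoters are shown for the 4 factors called at 1 h of treatment in either genotype. They are RefSeq sequences of the rat build GRCr8, 300 bases from 250 before to 50 after the annotated start, read 5′ to 3′ on the strand of the gene, whereas the expression table used build rn6, in which Foxa2 has the plus strand. Promoters of 7 of the 9 genes were in the reference table. Capitals mark TGACG or CGTCA (the half-site of the cAMP response element) and TAAT or ATTA (the core bound by homeodomain factors). They also mark CANNTG, the general E-box of basic helix-loop-helix factors, which is not particular to Neurod1. Both strands were searched.
Neurod1 (chr3:84770405-84770704, minus strand): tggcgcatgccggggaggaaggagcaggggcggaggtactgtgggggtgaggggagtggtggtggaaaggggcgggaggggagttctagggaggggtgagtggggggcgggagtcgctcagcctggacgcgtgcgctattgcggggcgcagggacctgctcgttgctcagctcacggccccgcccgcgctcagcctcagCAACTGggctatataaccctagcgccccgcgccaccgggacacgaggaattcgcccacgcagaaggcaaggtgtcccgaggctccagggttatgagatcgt
Isl1 (chr2:49823393-49823692, minus strand): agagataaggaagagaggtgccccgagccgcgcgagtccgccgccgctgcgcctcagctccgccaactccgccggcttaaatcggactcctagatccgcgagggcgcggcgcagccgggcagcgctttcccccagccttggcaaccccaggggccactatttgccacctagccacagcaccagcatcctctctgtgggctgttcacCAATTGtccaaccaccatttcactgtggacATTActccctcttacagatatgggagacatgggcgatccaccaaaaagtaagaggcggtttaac
Nkx2-2 (chr3:155075573-155075872, minus strand): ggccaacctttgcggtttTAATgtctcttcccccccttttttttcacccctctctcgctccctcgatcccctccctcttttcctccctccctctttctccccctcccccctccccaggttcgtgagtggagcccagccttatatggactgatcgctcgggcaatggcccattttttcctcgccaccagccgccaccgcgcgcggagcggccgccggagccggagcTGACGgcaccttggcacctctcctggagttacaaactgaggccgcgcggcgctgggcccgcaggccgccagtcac
Foxa2 (chr3:155927459-155927758, minus strand): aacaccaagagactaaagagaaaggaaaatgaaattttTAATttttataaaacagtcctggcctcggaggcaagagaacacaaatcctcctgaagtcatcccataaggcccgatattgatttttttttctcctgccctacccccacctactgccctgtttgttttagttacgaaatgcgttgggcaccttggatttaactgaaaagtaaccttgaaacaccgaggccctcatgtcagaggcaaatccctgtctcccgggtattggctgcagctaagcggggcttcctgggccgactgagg
The Nkx2-2 promoter held 1 half-site, 25 bases before the start, and the windows of Neurod1, Isl1 and Foxa2 held none. Among the 7 promoters, those of Nkx6-1, Nkx2-2 and Pax6 had a half-site, against 21.2% of all 33469 promoters in the table. The full element TGACGTCA was in 0 of the 7 and in 1.83% of all promoters. An E-box stood in 4 of the 7 (Pdx1, Nkx6-1, Neurod1 and Isl1) and in 72.1% of all, and a TAAT core in 4 of the 7 (Nkx6-1, Nkx2-2, Isl1 and Foxa2) and in 60.6% of all. The forkhead core TGTTTAC, of the kind bound by Foxa2, was in 0 of the 7 and in 3.78% of all. A match describes these letters alone, and its absence says nothing of the factor.

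In WT CON cells Pax6 had the highest level of the 8, at 443 and 432 TPM. Pdx1 followed at 292 and 291 TPM, then Neurod1 at 234 and 214 TPM and Isl1 at 172 and 161 TPM. Rfx6 (143 and 144 TPM) stood above Foxa2 (134 and 133 TPM), Nkx2-2 (93.0 and 80.7 TPM) and Nkx6-1 (51.4 and 53.0 TPM), and no pair of neighbours in this order overlapped. Pax6 and Pdx1 held the first and second place in all 14 groups. The places below them changed: in Med14S983A cells at 1 h of FSK, Neurod1 dropped from the third place it had in CON to the seventh, behind Nkx2-2, Foxa2, Rfx6 and Isl1.

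**Figure D1:**
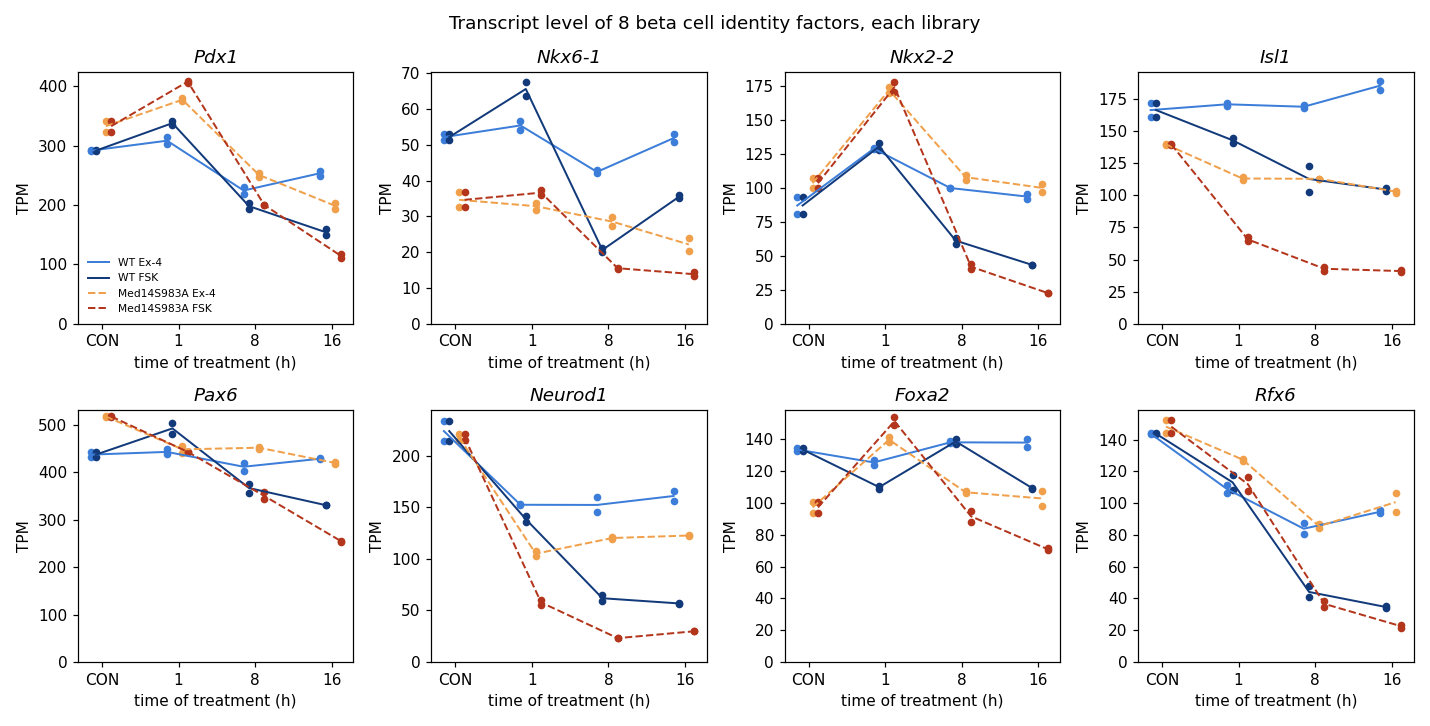
TPM of each of the 8 factors (one panel each) against hours of treatment, with both libraries of every group as points and lines through the group means, solid for WT and dashed for Med14S983A. Neurod1 and Rfx6 drop under FSK in both genotypes, and Isl1 reaches 41.0 TPM in Med14S983A cells at 16 h of FSK against 105 TPM in WT cells.

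The first question was how each treatment moved the factors against CON of the same genotype. A factor was called where limma's adjusted p was under 0.05 and the difference in log2(TPM + 1) exceeded 1.5-fold. Over the 12 comparisons 35 of 96 tests were called, 32 lower and 3 higher. The share of all genes called in these comparisons ran from 2.87% (WT, 1 h of Ex-4) to 46.1% (Med14S983A, 8 h of FSK). Neurod1 fell in 9 of the 12, Rfx6 in 7, and Pdx1, Nkx6-1 and Isl1 in 4 each. Nkx2-2 rose in 2 and fell in 3, Pax6 fell in 1, and Foxa2 rose in 1.

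Under Ex-4 at most 1 of the 8 factors was called at any time in WT cells. At 1 h 0 of 8 were called, with 2.87% of all genes called. At that time 4 of the 8 had an unadjusted limma p under 0.05, and edgeR and DESeq2 on recovered fragments called 1 each and DESeq2 with spike-in size factors 0. At 8 h 1 of 8 (Rfx6) fell, with 9.6% of all genes called, and at 16 h 1 of 8 (Rfx6 again) fell, with 11.8% called. The share of factors called was near that of all genes at both times. The fold threshold set these counts: 6 of the 8 at 8 h and 4 at 16 h had an adjusted limma p under 0.05. At 8 h edgeR and both DESeq2 fits called 1 each, and at 16 h they called 0. In Med14S983A cells the calls were 2 of 8 at 1 h (Nkx2-2 higher and Neurod1 lower, beside 3.04% of all genes called), 2 of 8 at 8 h (Neurod1 and Rfx6 lower, beside 6.3%) and 3 of 8 at 16 h (Pdx1, Nkx6-1 and Neurod1 lower, beside 11.9%).

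FSK lowered more of the factors. In WT cells the number called was 1 of 8 at 1 h (Neurod1 lower, beside 7.47% of all genes called), 3 of 8 at 8 h (Nkx6-1, Neurod1 and Rfx6 lower, beside 43.6%) and 5 of 8 at 16 h (all lower, beside 34.5%). In Med14S983A cells it was 4 of 8 at 1 h (Nkx2-2 and Foxa2 higher, Neurod1 and Isl1 lower, beside 10.4%), 6 of 8 at 8 h (all lower, beside 46.1%) and 7 of 8 at 16 h (all but Foxa2, all lower, beside 33.3%). At 16 h the median log2 difference of the 8 factors was -0.79 in WT and -1.64 in Med14S983A cells, beside -0.20 and -0.10 over all genes. Genes called lower made up 24.1% and 21.1% of all genes in these 2 comparisons. In WT cells at 8 h the share of factors called, 3 of 8, was near the 34.8% of all genes called lower.

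**Figure D2:**
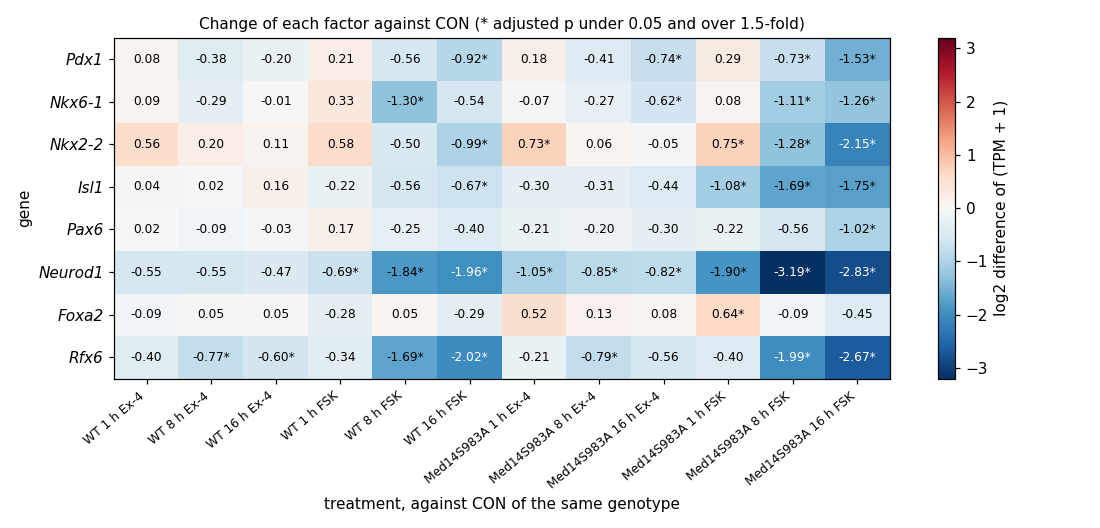
Difference in log2(TPM + 1) of each factor (rows) in each of the 12 treatment groups against CON of the same genotype (columns), blue for lower and red for higher, with an asterisk where the difference was called. The strongest change is that of Neurod1 at 8 h of FSK in Med14S983A cells (-3.19), and the 16 h FSK columns are below 0 for all 8 factors.

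Foxa2 (transcript NM_012743, chr3:142383290-142387485 of rn6) was read at 134 and 133 TPM in WT CON and at 93.6 and 101 TPM in Med14S983A CON. One hour of FSK gave 111 and 109 TPM in WT cells but 149 and 154 TPM in Med14S983A cells. Thus the mutant libraries were below the WT libraries in CON and above them at 1 h, without overlap. The rise in Med14S983A cells was 1.55-fold (log2 0.64 ± 0.04, SE; adjusted p = 5.08e-12), whereas WT cells had a log2 difference of -0.28. One hour of Ex-4 gave 138 and 141 TPM in Med14S983A cells (log2 0.52, under the fold threshold) and 127 and 124 TPM in WT cells. By 16 h of FSK, Foxa2 was at 71.6 and 70.3 TPM in Med14S983A cells, its lowest level, and at 109.6 and 109 TPM in WT cells. The call at 1 h of FSK did not hold without replicate 1 of Med14S983A CON (0.58) or with scaling on the spike-ins (0.43).

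Pdx1 (NM_022852, chr12:9496044-9501211), the master regulator of pancreas development, had 292 and 291 TPM in WT CON and 324 and 342 TPM in Med14S983A CON. After 1 h its log2 differences lay between 0.08 and 0.29, none of them called, with 407 and 409.7 TPM in Med14S983A cells given FSK. After 16 h of FSK it was at 159 and 149.7 TPM in WT cells (log2 -0.92 ± 0.04; adjusted p = 8.99e-17) and at 118 and 111 TPM in Med14S983A cells (-1.53 ± 0.04; adjusted p = 2.67e-21). All treated libraries at 16 h of FSK were below all CON libraries. Under 16 h of Ex-4, Pdx1 read 249 and 258 TPM in WT cells (log2 -0.20, not called) and 194 and 203 TPM in Med14S983A cells (-0.74, called). On spike-in scaling the WT change at 16 h of FSK was -0.52 and lost its call, as did the Med14S983A change at 8 h of FSK (-0.73) on median-centred libraries (-0.40).

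Nkx6-1 (NM_031737, chr14:9555264-9562191), which represses alternative islet fates, had a different course in the 2 genotypes. WT cells held 51.4 and 53.0 TPM in CON, fell to 21.2 and 19.996 TPM at 8 h of FSK (2.46-fold; adjusted p = 1.76e-15) and stood at 35.1 and 35.8 TPM at 16 h. Med14S983A cells held 32.5 and 36.7 TPM in CON, 15.7 and 15.3 TPM at 8 h and 13.2 and 14.4 TPM at 16 h. So the WT libraries at 16 h lay above those at 8 h, and the mutant libraries at 16 h lay below those at 8 h. The WT difference between 8 and 16 h was called (log2 0.76, and 1.12 on spike-in scaling). The mutant difference was not called, at -0.16, and changed sign to 0.16 on spike-in scaling. At 16 h of Ex-4, Nkx6-1 was at 50.7 and 53.0 TPM in WT cells and at 20.4 and 23.9 TPM in Med14S983A cells (log2 -0.62 ± 0.07; adjusted p = 1.27e-08). This last call was lost without replicate 2 of Med14S983A CON (-0.54), without replicate 1 of Med14S983A at 16 h of Ex-4 (-0.52) and with median-centred libraries (-0.57).

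Nkx2-2 (NM_001191904, chr3:141408798-141411170) had positive differences from CON at 1 h and negative ones at 16 h of FSK. In WT cells it went from 93.0 and 80.7 TPM in CON to 133 and 128 TPM at 1 h of FSK (log2 0.58, just short of the fold threshold) and 42.9 and 43.4 TPM at 16 h. In Med14S983A cells it went from 99.5 and 107 TPM to 170.4 and 177 TPM at 1 h (log2 0.75 ± 0.05; adjusted p = 1.41e-11) and 22.9 and 22.2 TPM at 16 h. The last pair is 4.43-fold below CON (adjusted p = 1.49e-21). Ex-4 gave nearly the same levels as FSK at 1 h, 129 and 128 TPM in WT and 174 and 169.8 TPM in Med14S983A cells. At 8 and 16 h of Ex-4 the log2 differences from CON lay between -0.05 and 0.20 in both genotypes. With spike-in scaling the 1 h FSK rise was 0.54 in Med14S983A cells, no longer called, and 0.65 in WT cells, called.

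Isl1 (NM_017339, chr2:48488911-48501217), a LIM homeodomain factor that partners with Ldb1, differed between the genotypes in 4 of the 6 interactions tested. WT cells had 172 and 161 TPM in CON and 145 and 141 TPM at 1 h of FSK. Med14S983A cells had 139.6 and 139.9 TPM in CON and 67.3 and 64.1 TPM at 1 h (log2 -1.08 ± 0.05; adjusted p = 9.26e-15). Every mutant library at 1 h of FSK was therefore below every WT library of the time course, including those at 16 h (103 and 106 TPM). The mutant levels were 44.5 and 41.1 TPM at 8 h and 41.7 and 40.3 TPM at 16 h of FSK. The WT fall at 16 h of FSK (-0.67) was called on deposited TPM but was -0.42 with median-centred libraries and -0.27 with spike-in scaling, without a call. Under 16 h of Ex-4, Isl1 was at 182 and 189 TPM in WT cells, its highest level, and at 104 and 102 TPM in Med14S983A cells.

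Pax6 (NM_013001, chr3:95707386-95728383), a paired-box factor needed for hormone gene expression, varied least of the 8, with a 2.03-fold range over the 14 group means. It was at 443 and 432 TPM in WT CON, 504 and 482 TPM at 1 h of FSK and 330.4 and 332 TPM at 16 h. In Med14S983A cells the levels were 518 and 518 TPM in CON, 444 and 443 TPM at 1 h of FSK and 256 and 254 TPM at 16 h (log2 -1.02 ± 0.03; adjusted p = 3.27e-19). This was its single called treatment difference.

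Neurod1 (NM_019218, chr3:66414321-66417617) had the widest range, 9.72-fold between the highest and the lowest group mean. WT cells had 234 and 214 TPM in CON, and FSK gave 141 and 136 TPM at 1 h, 64.8 and 58.8 TPM at 8 h and 56.3 and 57.2 TPM at 16 h. Med14S983A cells started from nearly the same level, 215 and 221 TPM, and FSK gave 59.9 and 55.5 TPM at 1 h, 23.1 and 23.04 TPM at 8 h and 29.6 and 29.9 TPM at 16 h. The mutant cells thus had at 1 h about the level that WT cells had at 8 and 16 h. The fall at 8 h was 3.58-fold in WT cells (log2 -1.84 ± 0.05; adjusted p = 8.44e-21) and 9.1-fold in Med14S983A cells (-3.19 ± 0.05; adjusted p = 2.24e-25). Ex-4 left WT cells at 145 to 166 TPM from 1 to 16 h (log2 -0.47 to -0.55, none called) and Med14S983A cells at 102 to 124 TPM (-0.82 to -1.05, all called). The WT fall at 1 h of FSK (-0.69) was -0.55 with median-centred libraries and was then not called.

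Rfx6 (NM_001106388, chr20:32717564-32764035) fell in both genotypes, and its interactions with genotype up to 8 h lay between -0.30 and 0.18. In WT cells it went from 143 and 144 TPM in CON to 80.5 and 87.2 TPM at 8 h of Ex-4 and to 47.5 and 40.6 TPM at 8 h of FSK. In Med14S983A cells it went from 152 and 144 TPM to 86.8 and 84.1 TPM and to 38.6 and 34.4 TPM. These 8 h ranges overlapped between the genotypes for Ex-4 and did not for FSK. After 16 h of FSK it was at 34.2 and 35.0 TPM in WT cells (4.07-fold; adjusted p = 3.67e-19) and at 21.6 and 23.3 TPM in Med14S983A cells (6.35-fold; adjusted p = 1.42e-21). The WT difference at 16 h of Ex-4 (-0.60) was -0.27 with spike-in scaling and was then not called. This difference also lost its call with median-centred libraries, in edgeR and in both DESeq2 fits.

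The genotypes were compared in CON cells next. Here 0 of 8 factors were called, whereas 19.4% of all genes were. The fold threshold set this count: 6 of the 8 had an unadjusted and an adjusted limma p under 0.05, and edgeR and both DESeq2 fits called 0. Nkx6-1 was the nearest to a call, at 51.4 and 53.0 TPM in WT and 32.5 and 36.7 TPM in Med14S983A cells (log2 -0.58 ± 0.07; adjusted p = 2.81e-08). It was called with a pseudocount of 0.1 TPM (-0.59) and without either replicate 1 of WT CON or replicate 2 of Med14S983A CON. The log2 differences were -0.46 for Foxa2, -0.25 for Isl1, 0.25 for Nkx2-2, 0.24 for Pax6 and 0.19 for Pdx1, and Neurod1 (-0.04) and Rfx6 (0.04) had adjusted p-values of 0.516 and 0.585. On spike-in scaling Isl1 was at -0.04 and Neurod1 at 0.17, while the median of all genes moved from -0.07 to 0.13.

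Of 34 listed beta cell genes (hormones, granule proteins, channels and transporters) 29 were tested, and 4 were higher (beside 8.29% of all genes) and 8 lower (beside 11.1%) in Med14S983A CON than in WT CON. Ins2 was at 2885 and 2991 TPM in WT and at 32620 and 37516 TPM in Med14S983A cells. The glucose transporter gene Slc2a2 was at 499.8 and 534 TPM in WT and at 61.7 and 63.6 TPM in Med14S983A cells. The part of differences between cell lines in these values was not tested.

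The main question of the design was whether the mutation changed the response to treatment. It was asked as an interaction, the Med14S983A response minus the WT response, each against its own CON. For FSK, 3 of 8 factors were called at 1 h (1 higher and 2 lower, beside 1.64% of all genes called), 3 of 8 at 8 h (all lower, beside 13.9%) and 7 of 8 at 16 h (all lower, beside 17%). Genes with a lower response made up 6.4% of all genes at 16 h, and the median interaction of the 8 factors was -0.68 beside 0.08 over all genes. For Ex-4, 1 of 8 was called at 1 h (Foxa2 higher, beside 0.672%), 0 of 8 at 8 h (2.77%) and 2 of 8 at 16 h (Nkx6-1 and Isl1 lower, beside 7.24%). At 8 h of Ex-4, 3 of the 8 had an unadjusted limma p under 0.05, and edgeR and both DESeq2 fits called 0.

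Neurod1 had the largest interaction of the 48 tested. Its response to FSK was lower in Med14S983A cells by 1.21 ± 0.07 at 1 h, 1.34 ± 0.07 at 8 h and 0.87 ± 0.07 at 16 h on the log2 scale (adjusted p = 7.18e-12, 1.33e-13 and 2.57e-10). For Isl1 the FSK interactions were -0.86, -1.12 and -1.08, each ± 0.08 (adjusted p of 1.2e-08 or less). Both genes encode factors that bind regulatory DNA of the insulin genes. Nkx2-2 differed at 8 h (-0.78 ± 0.08) and 16 h (-1.16 ± 0.08) of FSK but had an interaction of 0.16 at 1 h with either agent. Foxa2 was opposite in direction, with 0.91 ± 0.06 at 1 h of FSK and 0.61 ± 0.06 at 1 h of Ex-4.

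The 16 h FSK interactions of the remaining factors were close to each other. They were -0.62 ± 0.06 for Pdx1, -0.72 ± 0.09 for Nkx6-1, -0.62 ± 0.05 for Pax6 and -0.64 ± 0.09 for Rfx6, all close to the fold threshold. Foxa2, at -0.16, was the one factor without a call at that time. The Pdx1 value was -0.58, and no longer called, without replicate 1 of WT at 16 h of FSK, without replicate 2 of Med14S983A CON or without replicate 2 of Med14S983A at 16 h of FSK. The 16 h Ex-4 interactions of Nkx6-1 (-0.62) and Isl1 (-0.59) each lost the call without any of 3 libraries. For Nkx6-1 these were replicate 2 of WT at 16 h of Ex-4 (-0.58), replicate 2 of Med14S983A CON (-0.53) and replicate 1 of Med14S983A at 16 h of Ex-4 (-0.51). For Isl1 they were replicate 2 of WT CON (-0.54), of WT at 16 h of Ex-4 (-0.57) and of Med14S983A at 16 h of Ex-4 (-0.58), and the Foxa2 value at 1 h of Ex-4 lost it without replicate 1 of Med14S983A CON (0.56) and in edgeR (0.58).

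**Figure D3:**
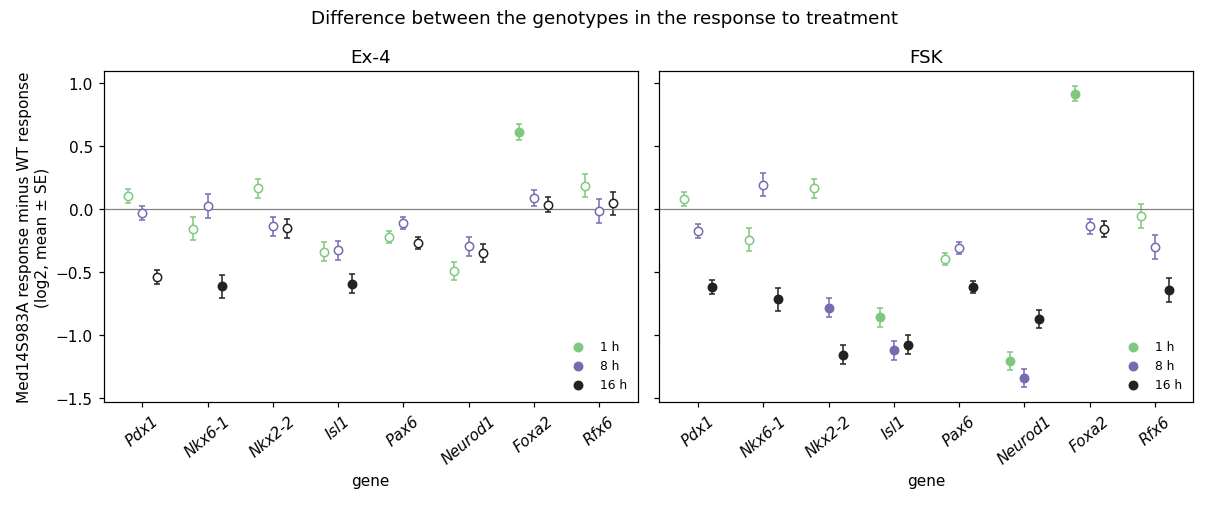
Med14S983A response minus WT response (log2, ± SE of the limma fit) for each factor under Ex-4 (left) and FSK (right) at 1, 8 and 16 h, with filled points where the interaction was called. Under FSK 7 of the 8 factors are filled and below 0 at 16 h, and Foxa2 is filled and above 0 at 1 h.

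The 2 agents were then set against each other at the same time. At 1 h, 0 of 8 factors differed in WT cells (1.79% of all genes) and 2 of 8, Neurod1 and Isl1, were higher under Ex-4 than under FSK in Med14S983A cells (3.03%). In WT cells at 1 h, 6 of the 8 had an unadjusted limma p under 0.05, and edgeR and both DESeq2 fits called 0. At 8 h, 5 of 8 were higher under Ex-4 in WT (28.1%) and 5 of 8 in Med14S983A cells (36.5%), and at 16 h, 5 of 8 (18.7%) and 7 of 8 (16.3%). Genes higher under Ex-4 were 11.4% and 10.6% of all genes at 16 h. In Med14S983A cells at 16 h the differences were 2.10 for Nkx2-2, 2.11 for Rfx6 and 2.01 for Neurod1, and each of the other members called (Pdx1, Nkx6-1, Isl1 and Pax6) was between 0.64 and 1.31. With spike-in scaling 4 of these 7 calls were left, Pdx1 (0.44), Nkx6-1 (0.31) and Pax6 (0.36) losing theirs, and Nkx6-1 also lost its call without replicate 2 at Ex-4 (0.53) or replicate 1 at FSK (0.58). Genes called higher under Ex-4 in this comparison went from 1085 to 528 of 10275 with spike-in scaling.

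At 8 h in WT cells the Isl1 difference between the agents was 0.59 and fell to 0.46 without replicate 2 of WT at 8 h of FSK and to 0.58 without replicate 2 of WT at 8 h of Ex-4. On median-centred libraries the WT calls of Isl1 (0.32) and Nkx2-2 (0.43) at 8 h and the Med14S983A call of Nkx6-1 at 8 h (0.53) were lost. Foxa2 was the factor without a call in any of these 6 comparisons, with differences from -0.12 to 0.53.

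From 8 to 16 h of Ex-4, 0 of 8 factors changed in WT (5.58% of all genes) and 0 of 8 in Med14S983A cells (3.96%). Unadjusted limma p-values were under 0.05 for 4 and 5 of the 8, and edgeR and both DESeq2 fits called 0. From 8 to 16 h of FSK, 1 of 8 factors changed in WT cells (Nkx6-1, 1.69-fold higher, beside 17.6% of all genes) and 3 of 8 in Med14S983A cells (Pdx1, Nkx2-2 and Rfx6 lower, beside 27.9%). The median of all genes was 0.11 and 0.15 in these 2 comparisons. With spike-in scaling it was 0.46 in both, and the Med14S983A calls became 1 higher (Neurod1, 0.68) and 0 lower. Of 10275 genes, 4171 were higher and 250 lower in Med14S983A cells with that scaling. On that scale Pdx1 (-0.47), Nkx2-2 (-0.54) and Rfx6 (-0.35) were still negative, so their direction from 8 to 16 h was the same under the 3 scalings although the calls were not.

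The ERCC spike-ins, which had gone into equal amounts of RNA, gave a second scale for the levels. On this scale the median of all genes at 16 h of FSK moved from -0.20 to 0.16 in WT cells and from -0.10 to 0.12 in Med14S983A cells. The calls among the 8 factors at 16 h of FSK went from 5 to 3 lower in WT cells and stayed at 7 lower in Med14S983A cells, and the 16 h FSK interactions stayed at 7 lower. Of 10275 genes, those called lower there went from 2478 to 1169 in WT and from 2168 to 1419 in Med14S983A cells. For the 16 h FSK interaction they went from 658 to 1059. At 16 h of Ex-4 the interactions called went from 2 to 6 lower, while the median of all genes moved from 0.09 to -0.33. Of all genes, 186 were called lower in this interaction on deposited TPM and 1703 on the spike-in scale. The spike-in share of the 2 Med14S983A libraries at 16 h of Ex-4 was 0.955% and 0.819%. Neurod1 (-1.57) and Rfx6 (-1.64) were the factors with the largest spike-in scaled changes in WT cells at 16 h of FSK, and Foxa2 turned from -0.29 to 0.11 there, without a call on either scale.

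**Figure D4:**
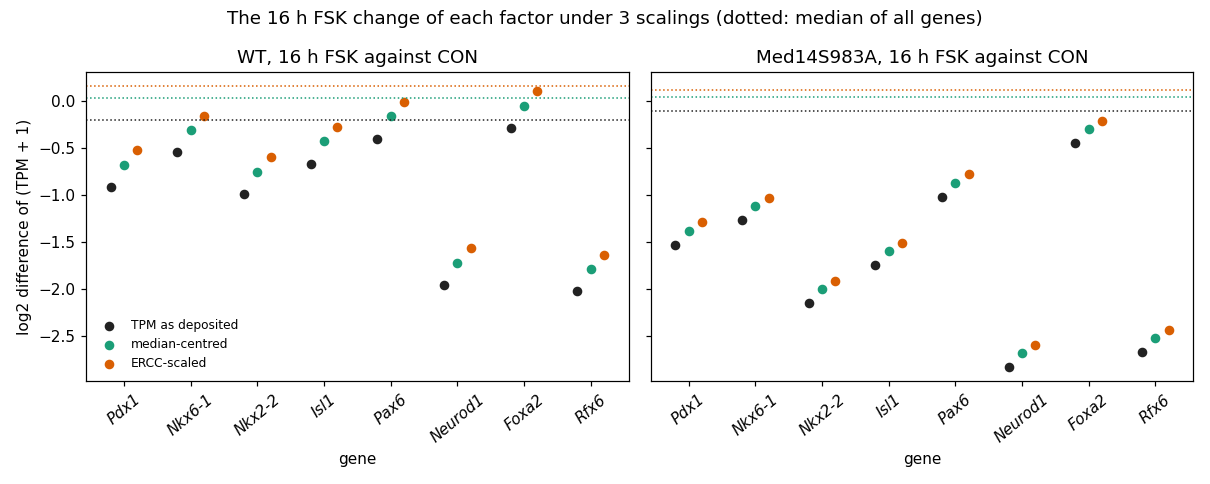
Difference in log2(TPM + 1) of each factor at 16 h of FSK against CON in WT (left) and Med14S983A (right) cells, on deposited TPM, on TPM centred by the median gene and on TPM scaled by spike-in counts, with the median of all genes dotted in the same colour. Neurod1 and Rfx6 lie furthest below the dotted lines in both genotypes, and Foxa2 lies nearest to them in Med14S983A cells.

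Over the 14 group means of log2(TPM + 1) the 28 pairs of factors had Pearson's r between 0.44 and 0.937, with a median of 0.682. These points share libraries and controls, and the values are descriptive. Pax6 and Rfx6 were the closest pair (0.937), followed by Pdx1 and Nkx2-2 (0.917) and by Neurod1 and Isl1 (0.914). The 2 genes most like each factor were then sought among the 6391 genes that averaged 10 TPM or more and whose group means spanned 0.58 or more. They were Zfp516 and S100a1 for Pdx1 (r = 0.973 and 0.958), Cacng4 and Lamp1 for Nkx6-1 (0.968 and 0.966), Zfp516 and Man2b1 for Nkx2-2 (0.956 and 0.948), and Vps37d and Vezf1 for Neurod1 (0.966 and 0.96). Isl1 was most like Lrfn3 and Btbd3 (0.965 and 0.957), Pax6 most like Mir3547 and Wif1 (0.96 and 0.957), and Rfx6 most like Oas1f and Rab40b (0.985 and 0.98). Foxa2 had the weakest likeness, to Bex2 and Suox (0.816 and 0.815). The row of Mir3547 lies within Baiap3, and its reads cannot be told apart from those of that gene.

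Other islet transcription factors were counted from a list of 36 genes, of which 21 were tested. At 16 h of FSK 3 rose and 11 fell in WT cells, and 2 rose and 10 fell in Med14S983A cells, with list medians of -0.70 and -0.27 beside -0.20 and -0.10 over all genes. The shares of all genes that fell were 24.1% in WT and 21.1% in Med14S983A cells, and those that rose 10.3% and 12.2%. Among them Mnx1, a homeodomain factor that represses non-beta fates, had 46.5 and 47.4 TPM in WT CON and 17.9 and 19.7 TPM at 16 h of FSK, and in Med14S983A cells 77.5 and 78.6 TPM against 15.2 and 16.0 TPM. The 16 h FSK interaction was called lower for 5 of the 21, Mnx1, Myt1, Tcf7l2 and Xbp1 among them (beside 6.4% of all genes), and higher for 2 (Sox4 and Ldb1, beside 10.6%), with a list median of -0.10 beside 0.08. Both started from a lower CON level in Med14S983A cells. Ldb1, the partner of Isl1, fell in both genotypes. Its group means went from 319 TPM in CON to 73.2 TPM at 16 h of FSK in WT cells. In Med14S983A cells they went from 189 to 68.9 TPM. Those of Sox4 went from 83.5 to 27.4 TPM in WT cells and were 19.7 TPM at both points in Med14S983A cells.

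Of the 29 beta cell genes tested, 17 fell and 4 rose at 16 h of FSK in WT cells, and 18 fell and 1 rose in Med14S983A cells, with medians of -0.86 and -0.98 beside -0.20 and -0.10 over all genes. Of all genes, 24.1% fell and 10.3% rose in WT cells, and 21.1% fell and 12.2% rose in Med14S983A cells. Ins2 fell 2.63-fold in WT and 5.2-fold in Med14S983A cells, and the zinc transporter gene Slc30a8 1.93-fold and 4.99-fold. Ins1 rose 1.71-fold in WT cells and had a log2 difference of 0.03 in Med14S983A cells. The 16 h FSK interaction was called lower for 10 of the 29 (beside 6.4% of all genes) and higher for 2 (Chgb and Ero1b, beside 10.6%), with a list median of -0.32 beside 0.08 over all genes.

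Of 16 genes that beta cells normally keep low or that mark loss of identity, 9 were tested. After 16 h of FSK 5 rose in each genotype, Slc16a1, Igfbp4, Acot7 and Gast among them in both, and 1 fell in WT and 2 in Med14S983A cells. Of all genes, 10.3% rose and 24.1% fell in WT cells, and 12.2% rose and 21.1% fell in Med14S983A cells. The list medians were 0.76 and 0.79 beside -0.20 and -0.10 over all genes. Aldh1a3 and Neurog3, which mark loss of identity, averaged 0.002 TPM and 0 TPM, and Ldha, which beta cells normally keep low, averaged 0.000714 TPM.

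Glucagon also moved with the treatment. It reached 1225 and 1345 TPM at 8 h of FSK in WT cells and 102 and 110.3 TPM in Med14S983A cells, and 761 and 809 TPM and 101 and 113 TPM at 16 h. With Ex-4, under which 1 of the 8 factors was called at each of these times in WT cells, it was at 758 and 918 TPM at 8 h and at 947 and 966 TPM at 16 h in WT cells. In Med14S983A cells with Ex-4 it was at 38.5 and 41.9 TPM at 8 h and at 43.4 and 45.5 TPM at 16 h. The other 25 markers of non-beta cells summed to 6.27 to 8.20 TPM at 16 h of FSK against 21.3 to 33.4 TPM in CON. Of the 26 markers, 11 were at 0 in WT CON and 10 in WT cells at 16 h of FSK, and 10 were at 0 in Med14S983A CON and 8 in Med14S983A cells at 16 h of FSK. In bulk RNA, fewer cells of a type and less RNA per cell cannot be told apart, and the part of these markers in the changes of the factors was not tested.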

How the data were processed

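Total RNA of INS-1 cells was read as paired-end, strand-marked libraries with ERCC spike-ins. Per the submitters' processing notes and the study's methods, the authors aligned reads with STAR 2.5.3a to rn6 and deposited TPM over exons of RefSeq genes from HOMER 4.11.1, and raw counts of 92 ERCC sequences, which set size factors in DESeq2 1.24.0. Here the deposited TPM of 1 transcript per symbol were filtered at a mean of 1 TPM, transformed as log2(TPM + 1) and fitted with limma 3.58.1 (trend) over 28 libraries and 14 group means, leaving 14 residual degrees of freedom. There were 29 contrasts, each with Benjamini-Hochberg adjustment over 10275 genes. TPM keep no absolute amount and rest on the make-up of each library. Fragments were recovered from TPM, transcript length and ERCC counts. Of 137335 values, 100% were whole within 0.05 reads plus the rounding error of the deposited TPM. By the width of that tolerance alone 22.6% would be. These fragments entered edgeR 4.0.16 and DESeq2 1.42.0 as alternatives, beside other pseudocounts, filters, scalings, a replicate block and leaving out each library. The fit was tested on simulated data. The genes named were the 9 members, the 2 genes most alike to each, and called or defining genes of 4 lists (other islet transcription factors, beta cell genes, other cell types, genes kept low in beta cells). Members and lists were chosen with earlier results of these data known.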

Additional observations from a re-analysis of the deposited data

Results flagged for a closer look

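For 16 tests the response of a factor to treatment differed between the genotypes by a test of the difference itself (limma interaction, adjusted p under 0.05 and over 1.5-fold). Under FSK these were Neurod1 at 1 h (-1.21), 8 h (-1.34) and 16 h (-0.87), Isl1 at 1 h (-0.86), 8 h (-1.12) and 16 h (-1.08), and Nkx2-2 at 8 h (-0.78) and 16 h (-1.16). At 16 h of FSK, Pdx1 (-0.62), Nkx6-1 (-0.72), Pax6 (-0.62) and Rfx6 (-0.64) were also lower in Med14S983A cells, and Foxa2 was higher at 1 h (0.91). Under Ex-4 the differences were Foxa2 at 1 h (0.61), Nkx6-1 at 16 h (-0.62) and Isl1 at 16 h (-0.59). The share of all genes called in the interactions ran from 0.672% (1 h of Ex-4) to 17% (16 h of FSK). Groups of 2 libraries were too small for a test of outlying libraries.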

How the results depend on the processing

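Of 79 calls among 232 tests of the 8 factors, 58 held under all alternatives run and 0 changed direction. Without a fold minimum the number called was 78 in place of 35 for treatment against CON, 6 in place of 0 for genotype at CON, 29 in place of 16 for the interactions, 41 in place of 24 for Ex-4 against FSK and 22 in place of 4 for 16 h against 8 h. The genotype count was 1 with a pseudocount of 0.1 TPM, and the count for 16 h against 8 h was 2 with ERCC scaling and 2 in DESeq2 with ERCC size factors. Leaving out 1 library at a time gave 34 to 39, 0 to 1, 14 to 16, 23 to 25 and 4 to 4 calls in the same order. A group left with 1 library was assumed to vary like the others. Differences between replicates 1 and 2 were correlated over genes for 91 pairs of groups, with a median of 0.015 and 26 over 0.1. The correlations ran from -0.39 to 0.435, so their median does not decide whether libraries were paired. With a replicate block all 79 calls held: 35, 0, 16, 24 and 4. Each of the 8 factors had 975 fragments or more in every library, which sets the counting precision. The scalings changed which calls passed at 16 h, and the cause was not tested.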
